A study of Mus musculus with 9 samples.

Results

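The 44 genes described here are interferon-stimulated genes, a set of antiviral and immune genes that cells switch on in response to interferon. They were chosen by gene name, with Oasl1 and Rtp4 known from these same libraries to lead the differences at the high dose, and all 44 were found among the 40993 genes of the expression table. The choice therefore used the high dose comparisons: for the members, those comparisons are given below as values, folds and standard errors, with no test. RNA-seq was run on BV2 cells, an immortalised mouse microglial line, as 9 libraries in 3 groups of 3. The groups were non-treated control cells, cells given 10 µg/ml MNPs@SiO2(RITC) for 12 h (low dose) and cells given 100 µg/ml for 12 h (high dose). MNPs@SiO2(RITC) are magnetic nanoparticles with a silica shell that carries the dye rhodamine B isothiocyanate. All libraries come from 1 cell line, for which the labels name no engineered allele. Nothing in the labels says that replicates were separate cultures, so p-values measure only the spread between these samples.

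Type I interferons are secreted when sensors of foreign or misplaced nucleic acid (cGAS, RIG-I, MDA5 and the Toll-like receptors) activate the factors IRF3 and IRF7. The interferons bind the receptor pair IFNAR1 and IFNAR2, whose kinases JAK1 and TYK2 activate the transcription factor complex ISGF3, which includes STAT2 and IRF9. ISGF3 binds the interferon-stimulated response element (ISRE) in the promoters of genes such as the OAS, IFIT and MX families, and microglia use this programme against viruses and show it in several brain diseases.

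At the high dose, Oasl1 and Rtp4 stood above all control and low dose libraries, and they were joined by 6 of the other 42 members: Oas1a, Oas2, Oas3, Rsad2, Ifit1 and Ifit3. Of these 6, Oas1a, Oas2 and Oas3 are synthetases of the OAS family, and Ifit1 and Ifit3 were too low to be tested. Of the 26 other members that were tested, 4 lay above both groups. Of all genes tested, 6.16% lay above both other groups in this way and 6.54% below. With no filter, 8 of the 44 members lay above both, beside 1.85% of the 40993 genes, and 3 below, beside 2.01%. Of those 40993 genes, 22045 were at 0 in every library. Ifit2, Irf1 and Parp9 lay below both other groups, and the remaining 33 members did neither. With a correction for GC content and length, none of Ifit2, Irf1 and Parp9 lay below both groups, and with rescaling by quantiles only Irf1 did. Expressed as FPKM (fragments per kilobase of transcript, scaled to the mapped fragments of the library), most members with high levels in untreated cells differed little between the groups. At the low dose no member was called against control, and neither was any other of the 11161 genes tested.

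Promoter sequences are shown for the members that were highest at the high dose, because the ISRE is the element through which the family is known to be controlled. Windows from 250 bases before to 50 bases after the transcription start site were taken from RefSeq on build GRCm38.p6 and were found for 35 of the 44 members. The search used the ISRE core GAAANNGAAA on both strands, written TTTCNNTTTC where it lies on the other strand. Sequences read 5′ to 3′ along the gene's strand, lie wholly before the start site, and have the core in capitals. For Oasl1 all 250 bases before the start site are shown, because no core was found in its window, and for the others a stretch around the cores.
Oasl1, chr5:114922990-114923239, plus strand: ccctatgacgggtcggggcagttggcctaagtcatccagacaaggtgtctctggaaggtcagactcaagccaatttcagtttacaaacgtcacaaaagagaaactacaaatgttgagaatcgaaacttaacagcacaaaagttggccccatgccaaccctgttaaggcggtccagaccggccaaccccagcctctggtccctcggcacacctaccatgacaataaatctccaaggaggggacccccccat
Oas1a, chr5:120907526-120907560, minus strand: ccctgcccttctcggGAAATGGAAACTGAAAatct
Oas3, chr5:120777710-120777749, minus strand: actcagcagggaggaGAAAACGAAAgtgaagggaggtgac
Ifit1, chr19:34640770-34640828, plus strand: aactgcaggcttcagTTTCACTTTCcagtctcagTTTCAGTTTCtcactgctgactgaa
Ifit3, chr19:34583358-34583431, plus strand: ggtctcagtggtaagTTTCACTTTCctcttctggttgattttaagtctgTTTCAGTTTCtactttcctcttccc
Rsad2, chr12:26456548-26456587, minus strand: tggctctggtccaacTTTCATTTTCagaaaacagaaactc

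The core was present in 16 of the 35 members with a window (45.7%) and in 1079 of 27025 genes with a window (3.99%). In Oas1a, 2 cores overlapped and began 20 and 14 bases before the start site. In Oas3 the core began 75 bases and in Rsad2 120 bases before it. Ifit1 held 2 cores, which began 104 and 85 bases before the start site, and Ifit3 held 2, at 156 and 122 bases. Members that lay neither above nor below both groups held the core too, 11 of 27 with a window: Isg15 with 3 cores, Bst2, Ifitm3 and Gbp3 with 2, and Stat2, Eif2ak2, Ddx58, Ifih1, Gbp2, Gbp7 and Trim30a with 1. Of the members below both groups, Ifit2 and Irf1 held none, and the core's part in the differences was not tested. A match of letters is not a shown binding site, and no match in this window says nothing about the factor. Rtp4, Oas2, Mx1, Mx2, Parp9, Parp14, Usp18, Zbp1 and Dhx58 had no entry.

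The level of the members in untreated cells ran from 0 to over 100 FPKM. Ifitm3, a membrane protein that blocks virus entry, was the most abundant, with 121 ± 8.72 FPKM in the control libraries (SD, n = 3). Next in order were Trim25, a ubiquitin and ISG15 ligase (94.6 ± 3.91), Bst2, the tetherin that holds budding virions at the cell surface (88.7 ± 7.003), and Samhd1, a dNTP hydrolase (72.6 ± 0.571). Oasl1 followed with 32.9 ± 2.003 FPKM, close to the RNA-editing enzyme Adar, with 31.5 ± 0.983. The gap between Trim25 and Bst2 was smaller than the SD of Bst2, and that between Oasl1 and Adar smaller than the SD of Oasl1. In all, 11 members had a control mean over 10 FPKM, and 2 of these, Oasl1 and Oas1a, were above both other groups at the high dose. Of all genes tested, whatever their level, 6.16% were above both. Nothing is read from this count, since Oasl1 was known to lead the high dose differences when the members were chosen. At the other end, Ifih1, Zbp1 and Cmpk2 were listed at 0 in every library, and Mx1 and Ifi44 were above 0 in a single library each, at 0.024 FPKM in high dose replicate 3 and 0.038 in control replicate 1. A listed 0 can be a failed estimate, since 9 genes of the table exceed 1000 FPKM in some libraries and are at 0 in others.

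**Figure D1:**
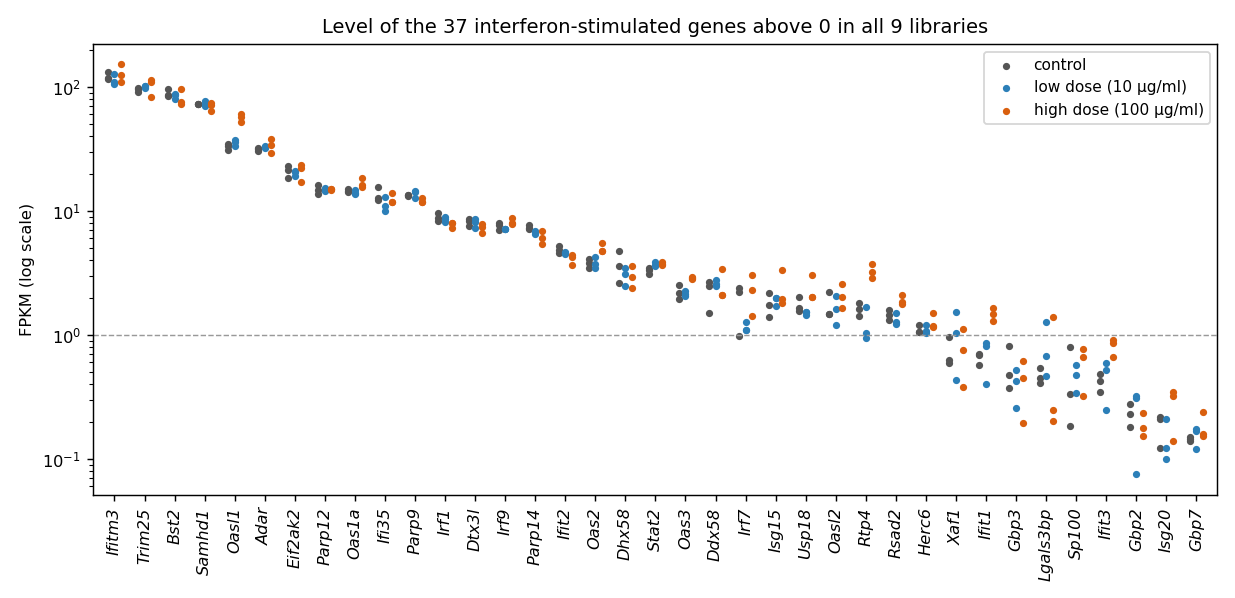
FPKM on a log scale of the 37 members that were above 0 in all 9 libraries, ordered by their control mean, with 1 point per library (grey control, blue low dose, orange high dose) and a dashed line at 1 FPKM. The members run from Ifitm3 at 121 FPKM to Gbp7 at 0.145 FPKM in the controls, and the orange points of Oasl1, Rtp4 and Ifit1 stand above the grey and blue ones.

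The test covered 11161 genes, those that averaged 1 FPKM or more across all libraries, and 28 members passed this filter. No member passed it through the high dose libraries alone, since each of the 28 also averaged 1 FPKM or more in the control and in the low dose group. The other 16 are given by their values only. Fold changes are differences of log2(FPKM + 1), which understate the change of low genes. The depth of the libraries is unknown from FPKM, but the steps between low values put it at about 13.1 to 16.5 M fragments. On that estimate Ifit3 rested on a mean of 12.8 fragments a library and Ifit1 on 34.3, against 377 for Oas1a, so the values of Ifit1 and Ifit3 carry a much larger counting error.

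High dose replicate 1 stands apart from the other libraries. Relative to the mean over all libraries, transcripts shorter than 1000 nt exceeded transcripts longer than 5000 nt by 0.43 (log2) in it, against -0.23 to 0.22 in the other 8. Ifitm3, Isg15 and Usp18 were highest in that library and Trim25, Adar and Eif2ak2 lowest. Values without it are given beside several of the members below.

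The OAS family makes the signal 2′-5′ oligoadenylate, which activates RNase L, except for OASL1, which lacks this activity and is known as a translational inhibitor of IRF7. Oasl1 read 30.8, 34.8 and 33.2 FPKM in the 3 control libraries, 33.4, 37.4 and 36.1 at the low dose, and 60.3, 51.9 and 57.6 at the high dose. The high dose libraries were clear of the other 6, while control and low dose libraries overlapped. The ratio of the means was 1.72 against control and 1.59 against the low dose, and the log2 differences were 0.76 and 0.65 (SE 0.0745). Without high dose replicate 1 they were 0.72 and 0.61. Oasl1 lies at chr5:114923240-114937915, 11005 bases beyond Oasl2, a related synthetase-like gene whose sequence similarity can divert reads between the pair. Oasl2 was far lower, with 1.72 ± 0.420 FPKM in controls and 2.08 ± 0.480 at the high dose, and its groups overlapped. Its log2 difference from control was 0.18, or 0.07 without high dose replicate 1.

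Oas1a, Oas2 and Oas3, further along chromosome 5, had smaller differences. Oas2 read 3.78, 4.11 and 3.43 FPKM in control, 3.46, 4.26 and 3.76 at the low dose and 4.75, 5.50 and 4.72 at the high dose, a ratio of 1.32 against control. Oas3 read 1.95, 2.18 and 2.54 FPKM in control, 2.12, 2.07 and 2.26 at the low dose and 2.92, 2.83 and 2.87 at the high dose, a ratio of 1.29. Oas1a read 15.1, 14.4 and 14.2 FPKM in control, 13.8, 13.7 and 14.7 at the low dose and 18.4, 15.5 and 16.3 at the high dose, a ratio of 1.148. In all 3 genes the high dose libraries lay above the other 6, but by little in Oas1a, where the lowest high dose library, at 15.5 FPKM, was next to the highest control, at 15.1. Without high dose replicate 1 the log2 difference of Oas1a from control was 0.12 in place of 0.18. Oas1a has related Oas1 copies in the mouse, so its value may hold reads of these paralogs. The median log2 difference of the 5 OAS members was 0.27 against control and 0.30 against the low dose, and all 5 were above 0 in both comparisons, under each rescaling and with each library left out in turn. Of all genes tested, 49.4% were above 0 against control and 50% against the low dose. Nothing is read from this count. Oasl1 was part of the choice, and the comparisons and refits reuse the same high dose libraries.

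**Figure D2:**
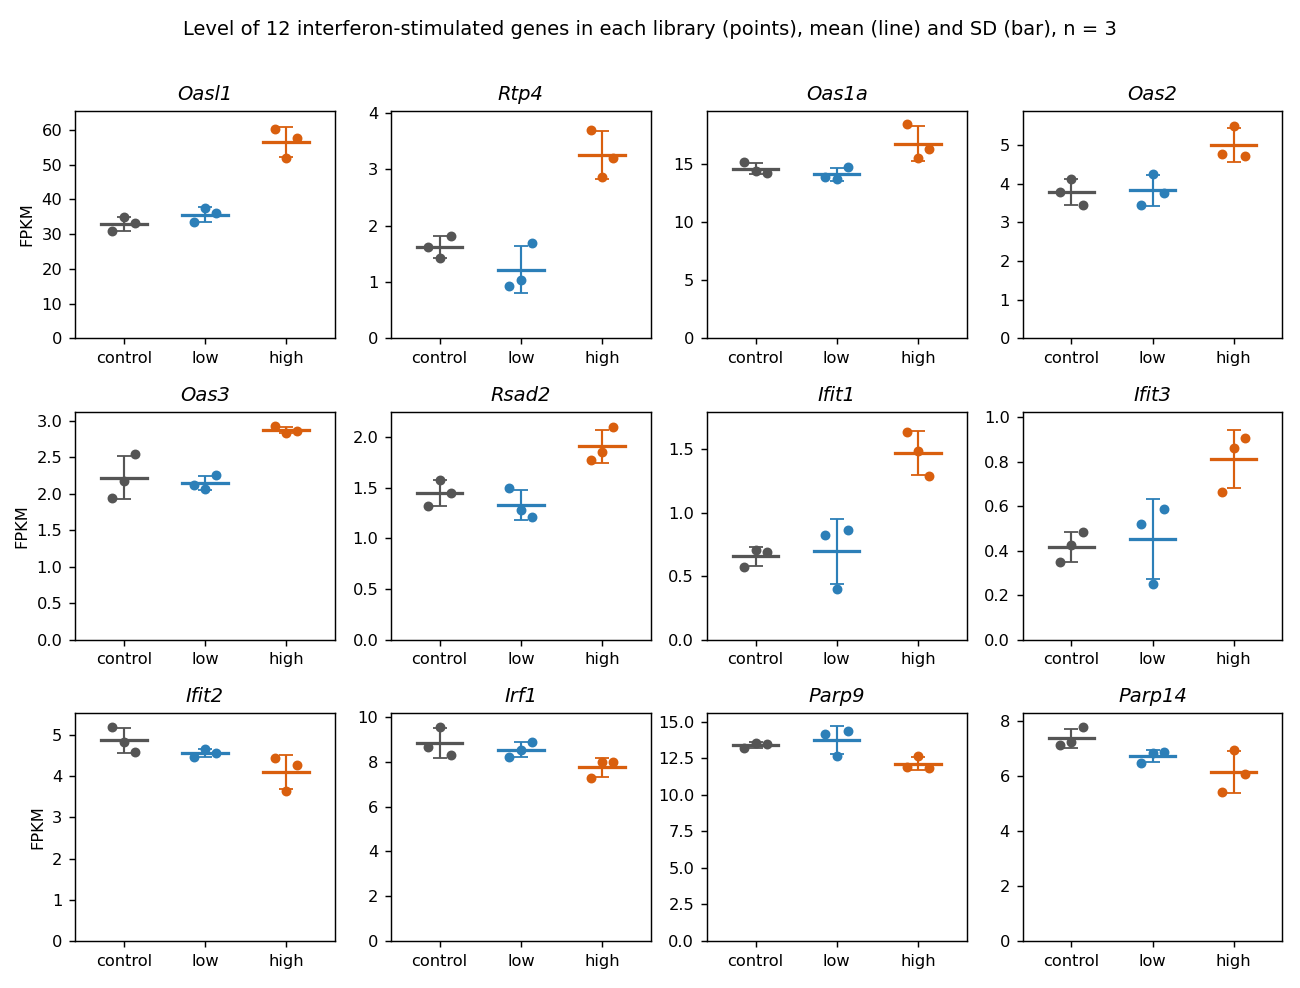
FPKM of 12 members in each library, as points, with the mean (line) and SD (bar) of each group of 3. The high dose points lie above both other groups for Oasl1, Rtp4, Oas1a, Oas2, Oas3, Rsad2, Ifit1 and Ifit3, and below both for Ifit2, Irf1 and Parp9. Parp14 is below control but overlaps the low dose, and every axis starts at 0.

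Among the effectors, Rtp4, a receptor-transporting chaperone that also binds viral RNA, had the largest difference. It read 1.61, 1.42 and 1.81 FPKM in control, 0.937, 1.03 and 1.69 at the low dose and 3.70, 2.86 and 3.20 at the high dose. The high dose libraries were clear of the others, at a ratio of 2.01 to control and 2.66 to the low dose. The log2 differences were 0.70 and 0.95 (SE 0.150), and 0.62 and 0.87 without high dose replicate 1. Rsad2, which encodes viperin, a maker of a chain-terminating nucleotide, read 1.32, 1.57 and 1.45 FPKM in control, 1.49, 1.28 and 1.22 at the low dose and 1.78, 1.85 and 2.098 at the high dose. Its head-to-head neighbour Cmpk2, 12751 bases away on the opposite strand and usually induced with it, was listed at 0 throughout.

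The other effectors did not follow. Ifitm3 read 131, 117 and 115 FPKM in control, 106, 108 and 128 at the low dose and 152, 109 and 124 at the high dose, with all groups overlapping, and its log2 difference from control was 0.07, or -0.05 without high dose replicate 1. Bst2 read 96.7, 85.9 and 83.6 FPKM in control, 80.2, 85.7 and 87.9 at the low dose and 95.7, 73.3 and 74.8 at the high dose. Without high dose replicate 1, the high dose libraries of Bst2 were below both other groups. Samhd1 read 72.1, 72.4 and 73.2 FPKM in control, 72.9, 76.5 and 70.2 at the low dose and 63.9, 71.3 and 74.4 at the high dose. The high dose libraries of these abundant effectors overlapped the other groups, while those of Rtp4 and Rsad2, both under 4 FPKM, did not. Isg20, lower still, also overlapped, with 0.184 ± 0.0538 FPKM in control and 0.268 ± 0.112 at the high dose. Rtp4 was part of the choice.

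The IFIT proteins bind foreign RNA and block its translation. Their genes sit side by side on chromosome 19, and Ifit1 and Ifit3 were highest at the high dose while Ifit2 was lowest. Ifit1 read 0.571, 0.706 and 0.688 FPKM in control, 0.820, 0.402 and 0.866 at the low dose and 1.64, 1.49 and 1.29 at the high dose, a ratio of 2.24 to control. Ifit3 read 0.347, 0.426 and 0.482 FPKM in control, 0.519, 0.248 and 0.588 at the low dose and 0.663, 0.860 and 0.907 at the high dose, a ratio of 1.94. Both were below the filter, and both were above the other groups in every high dose library. Ifit2 was the most abundant of the family and the reverse: 5.19, 4.83 and 4.58 FPKM in control, 4.46, 4.66 and 4.56 at the low dose and 4.43, 3.65 and 4.26 at the high dose. Its ratio to control was 0.845 and its log2 difference was -0.20 (SE 0.0848). With a correction for GC content and length, the high dose libraries of Ifit2 overlapped both other groups. With rescaling by quantiles they stayed below control but overlapped the low dose.

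The transcription factors of the response were mixed. Irf7, the amplifier of interferon production, was uneven within groups: 0.985, 2.40 and 2.23 FPKM in control, 1.26, 1.09 and 1.09 at the low dose and 3.04, 2.31 and 1.42 at the high dose. The high dose libraries of Irf7 overlapped the controls and were above the low dose. Its log2 difference from control was 0.19, or 0.02 without high dose replicate 1. Irf9, the DNA-binding part of ISGF3, had 7.58 ± 0.493 FPKM in control, 7.13 ± 0.0148 at the low dose and 8.17 ± 0.509 at the high dose, with the same overlaps. Stat2 was above control at both doses, with 3.31 ± 0.174, 3.72 ± 0.164 and 3.74 ± 0.0930 FPKM. Irf1, which responds to interferon gamma and NF-kB, read 8.69, 9.58 and 8.30 FPKM in control, 8.205, 8.55 and 8.91 at the low dose and 7.28, 8.01 and 7.99 at the high dose, below both other groups. The annotated end of Irf7 overlaps Phrf1 by 45 bases on the opposite strand, and Irf9 overlaps Rnf31 by 123 bases on the same strand.

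ISG15 is a ubiquitin-like modifier, HERC6 its mouse ligase and USP18 the protease that removes it and also damps the receptor. Usp18 read 1.65, 2.04 and 1.57 FPKM in control, 1.52, 1.45 and 1.54 at the low dose and 3.05, 2.01 and 2.01 at the high dose, above every low dose library but overlapping control. Its log2 difference from control was 0.28, or 0.13 without high dose replicate 1. Isg15 read 1.75, 2.19 and 1.40 FPKM in control, 1.999, 1.72 and 1.97 at the low dose and 3.34, 1.96 and 1.79 at the high dose, so that only high dose replicate 1 was above the controls. Its log2 difference from control was 0.26 (SE 0.181) with that library and 0.06 without it. Trim25 was lowest, not highest, in that library: it read 90.2, 95.9 and 97.6 FPKM in control, 101, 102 and 97.2 at the low dose and 82.1, 113 and 110 at the high dose. Without high dose replicate 1, Trim25 was above both other groups, with a log2 difference from control of 0.24 (SE 0.0461).

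The sensors and RNA enzymes at the high dose overlapped both other groups in all tested members. Eif2ak2, the kinase PKR, had 20.95 ± 2.23 FPKM in control and 20.9 ± 3.30 at the high dose, a log2 difference of -0.00903, or 0.12 without high dose replicate 1. Adar had 31.5 ± 0.983 and 33.7 ± 4.53, and without high dose replicate 1 it was above both other groups. Ddx58, which encodes RIG-I, had 2.22 ± 0.636 and 2.53 ± 0.755. The PARP and DTX3L group, ADP-ribosyltransferases with their partner ligase, was the only role group of more than 1 tested member with a median below 0 in both high dose comparisons (-0.14 against control and -0.12 against the low dose). Parp9 read 13.2, 13.5 and 13.5 FPKM in control, 14.2, 12.6 and 14.4 at the low dose and 11.9, 12.6 and 11.9 at the high dose. Parp14 read 7.10, 7.24 and 7.76 FPKM in control, 6.46, 6.82 and 6.87 at the low dose and 5.41, 6.92 and 6.07 at the high dose. Parp9 and Dtx3l are transcribed head to head and overlap by 682 bases. Whether the counting used strand is not stated, so their reads may be mixed. The guanylate-binding proteins and Mx GTPases were all below 1 FPKM, with Gbp3 the highest at 0.550 ± 0.229 FPKM in control.

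Over the 28 tested members, those with all 3 high dose libraries above all controls numbered 7, beside 12.5% of all genes, and those with all below numbered 4, beside 11.4%. Of the 28, 18 had a log2 difference above 0, against 49.4% of all genes, and the median was 0.09, against -0.00158 for all genes. All high dose libraries were above all low dose libraries for 9 members and below for 3, beside 9.37% and 9.99% of all genes. With a correction for GC content and length these counts were 9 and 1, beside 11.2% and 9.51%. With rescaling by quantiles they were 10 and 1, beside 10.4% and 9.02%. With neither change, 19 of the 28 had a log2 difference above 0, against 50% of all genes, with a median of 0.08. The comparisons with control and with the low dose share the high dose libraries. Nothing is read from the counts, since the genes were chosen with these comparisons known.

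Against both other groups at once, 6 of the 28 were higher (21.4%), beside 6.16% of all genes tested, and 3 were lower (10.7%), beside 6.54%. Leaving aside Oasl1 and Rtp4, 4 of 26 were higher, 3 lower and 19 neither. With high dose replicate 1 left out, 8 of the 28 were higher, Adar and Trim25 being the additions, beside 12.5% of all genes, and 4 were lower, Bst2 being the addition, beside 12.9%. A filter at 5 FPKM leaves out most of the OAS members, Rtp4 and Rsad2. Of the 15 members left, 2 were higher, beside 7.01% of all genes that passed it, and 2 were lower, beside 6.59%. Over the 28 again, a correction for GC content and length gave 7 higher, beside 7.56% of all genes, and 0 lower, beside 6.56%. Rescaling by quantiles gave 8 higher, beside 6.93% of all genes, and 1 lower (Irf1), beside 5.95%.

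**Figure D3:**
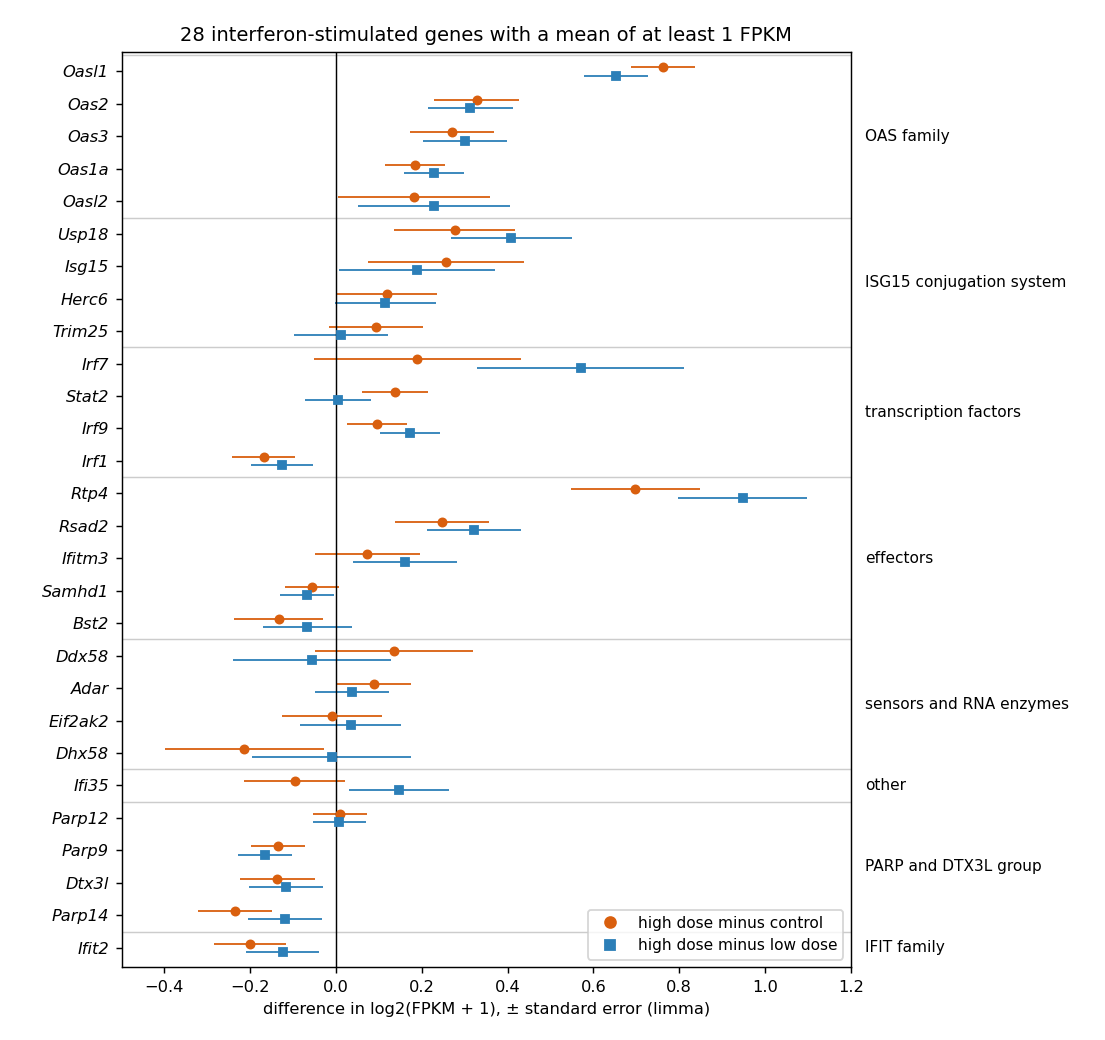
Difference in log2(FPKM + 1) with its standard error from limma for the 28 tested members, grouped by role, high dose minus control (orange circles) and high dose minus low dose (blue squares). Oasl1 and Rtp4 lie at 0.65 or more in both, and the 5 OAS members are all right of 0. Left of 0 in both are Ifit2, Irf1, Parp9, Parp14, Dtx3l, Bst2, Samhd1 and Dhx58. The comparisons share the high dose libraries.

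Low dose against control was not used in the choice and was tested. With limma, no member was called in either direction, as were 0% of all genes higher and 0% lower, and the adjusted p of every member was 1. At an unadjusted p under 0.05 there were 0 of 28 members and 366 of 11161 genes. The log2 differences of the members ran from -0.38 (Irf7) to 0.19 (Ddx58), with a median of -0.04. Adar and Stat2 had all low dose libraries above all controls, 2 of 28 beside 6.14% of all genes, and Parp14 and Usp18 had all below, beside 4.61%. The log2 difference was above 0 in 11 of 28, against 50% of all genes. Oasl1 was 0.11 (SE 0.0745) and Rtp4 -0.25 (SE 0.150) at the low dose. Without low dose replicate 3, 6 members had all low dose libraries below all controls, Rtp4 and Oas1a among them, beside 11.7% of all genes. With that library left out, 3 had all above, beside 12.7%. Without control replicate 1, 5 members had all below, beside 8.85% of all genes, and 2 all above, beside 9.72%.

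The summed FPKM of the 44 members was 587, 585 and 586 in the control libraries, 566, 576 and 595 at the low dose and 634, 605 and 622 at the high dose. Without Oasl1, the sums were 556, 549.8 and 553 in control, 532, 539 and 559 at the low dose and 574, 553 and 565 at the high dose, and the groups overlapped. Ifitm3, Trim25, Bst2, Samhd1 and Oasl1 make up most of these sums. In bulk RNA, more cells with a response and more RNA per cell cannot be told apart.

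The signal that would precede these genes was looked for next in 55 listed genes of interferon production and signalling, of which 54 were in the table and 30 were tested. This list and the list of further interferon-stimulated genes below were, like the members, drawn up with earlier results of these libraries known, so their calls are not independent evidence of a direction. None of the 21 interferon ligands reached the filter. Ifnb1 was at 0.119 FPKM in low dose replicate 2, Ifnab at 0.0794 in high dose replicate 2 and Ifnz at 0.0488 in control replicate 2, and the other 18 were listed at 0 in all libraries at 12 h. The receptor chains were present: Ifnar1 had 33.9, 33.3 and 37.7 FPKM in control and 27.5, 33.4 and 35.0 at the high dose, and Ifnar2 had 29.0, 30.02 and 29.7 and 31.7, 29.1 and 28.5.

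High dose against control called 2 of these 30 genes higher and 1 lower, where 0.708% of all genes were called higher and 1.41% lower. Mb21d1, which encodes the DNA sensor cGAS, rose from 10.8, 10.3 and 11.2 FPKM to 13.4, 13.4 and 13.5, by 0.29 (log2, SE 0.0535, adjusted p = 0.0298, limma). Irf2bp2, a partner of the repressor IRF2, rose from 22.5, 20.3 and 22.2 FPKM to 29.1, 26.1 and 26.1, by 0.31 (adjusted p = 0.0413, limma). Ptpn6, the phosphatase SHP-1 that acts on JAK kinases, fell from 136, 135 and 127 FPKM to 96.1, 99.5 and 95.3, a log2 difference of -0.45 (adjusted p = 0.00962, limma). Ptpn6 was also lower than at the low dose, by -0.39 (adjusted p = 0.0223, limma), and was the only one of the 30 called there, where 0.215% of all genes were called higher and 0.636% lower. That call was lost with a correction for GC content and length, with only the 6 libraries compared, and in 6 of 9 fits, each made without 1 of the libraries. Against control, only Ptpn6 was called with the 6 libraries compared, and Irf2bp2 was also not called with no filter, without the eBayes trend or with the GC and length correction. None of the 3 was called there without control replicate 2, and Mb21d1 and Irf2bp2 only without high dose replicate 1 among those 9 fits. In every high dose library 6 of the 30 genes (20%) lay below both other groups, beside 6.54% of all genes, and 2 (6.67%) above, beside 6.16%. The 6 were Ptpn6 and, not called, Ifngr1, Jak2, Ptpn11, Pias1 and Tlr9. The median of the 30 genes was -0.06 against control and -0.11 against the low dose, and 11 and 6 of the 30 had a log2 difference above 0. Against the low dose, 11 of the 30 lay below all low dose libraries, beside 9.99% of all genes, and 3 above, beside 9.37%. Against control those counts were 7, beside 11.4%, and 3, beside 12.5%.

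**Figure D4:**
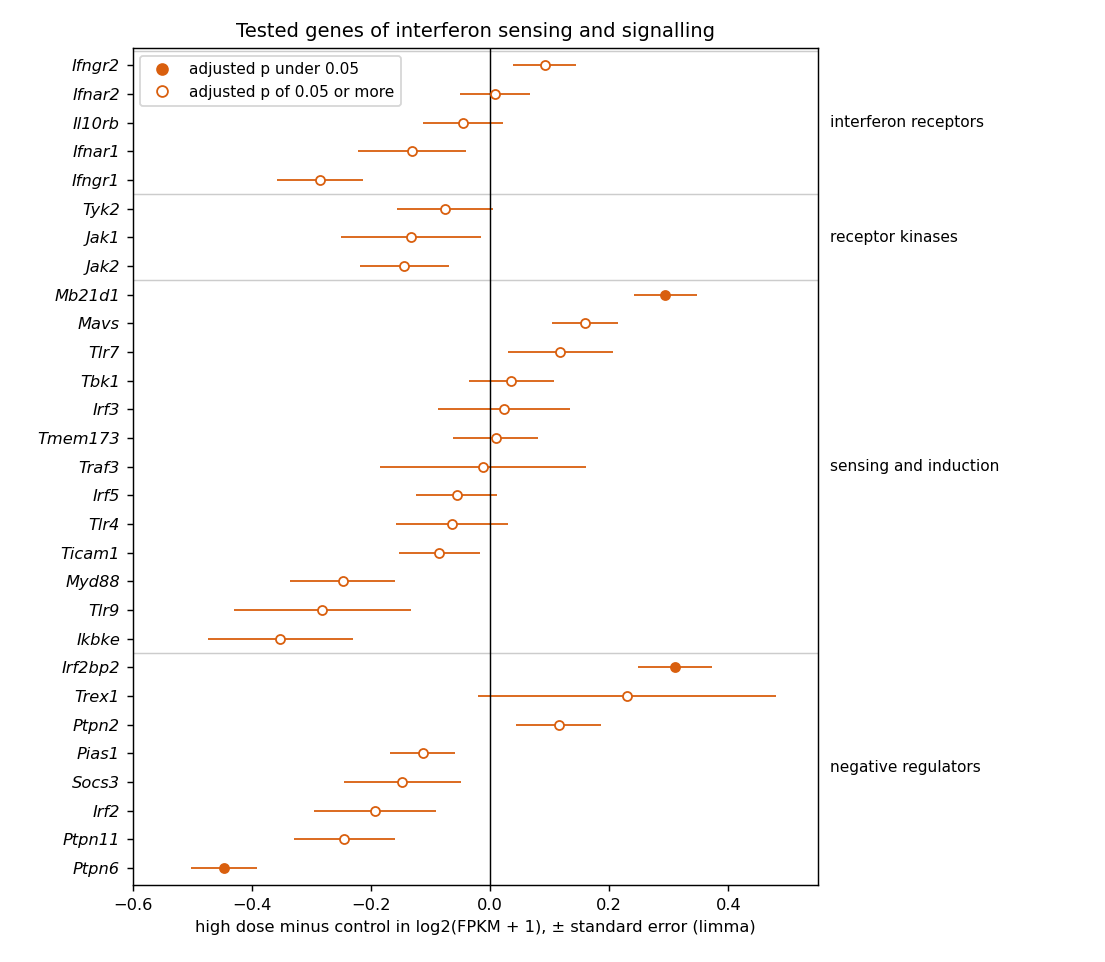
High dose minus control in log2(FPKM + 1), with the standard error from limma, of tested genes upstream of the interferon-stimulated genes, by role. Filled points are adjusted p under 0.05: Mb21d1 and Irf2bp2 to the right of 0 and Ptpn6 at -0.45 to the left, while the receptors and their kinases are open points.

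A second list held 86 further interferon-stimulated genes outside the 44, of which 83 were in the table and 50 were tested. High dose against control called none higher and 2 lower, where 0.708% of all genes were called higher and 1.41% lower. Mov10, an RNA helicase, fell from 17.7, 17.8 and 18.2 FPKM to 12.9, 14.1 and 14.6, a log2 difference of -0.35 (adjusted p = 0.0208, limma). Tor3a, a torsin ATPase, fell from 38.2, 41.2 and 43.7 to 31.7, 30.8 and 29.5 FPKM, a log2 difference of -0.41 (adjusted p = 0.0320, limma). Neither was called with only the 6 libraries compared, without control replicate 1, 2 or 3 or without high dose replicate 2, and Tor3a was also not called with no filter or without high dose replicate 3, low dose replicate 1 or low dose replicate 3. The chemokine Cxcl10, one of the strongest interferon targets, read 4.41, 5.21 and 4.21 FPKM in control, 3.18, 4.25 and 4.31 at the low dose and 5.87, 6.27 and 8.405 at the high dose, above both groups but not called (adjusted p = 0.125 against control, limma). Irgm1, an immunity-related GTPase, was likewise above both groups without a call. Cxcl10 and Irgm1 were the only 2 of the 50 above both groups (4%), beside 6.16% of all genes. Mov10 and Tor3a were the only 2 below both (4%), beside 6.54%. The median of these 50 genes was -0.04 against control and -0.00368 against the low dose, and 8 of the 50 (16%) had an unadjusted p under 0.05 against control, beside 2160 of 11161 genes (19.4%).

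Markers of the cells were read in the same libraries. All 12 listed microglia and macrophage markers were in the table and 10 exceeded 1 FPKM, with sums of 1523, 1476 and 1339 FPKM in control, 1371, 1345 and 1434 at the low dose and 1369, 1230 and 1224 at the high dose. Cd68 was the most abundant of them, and Cx3cr1 and P2ry12, which mark microglia in the brain, were near 0. Tmem119, also on that list, was present, at 2.32, 2.35 and 2.05 FPKM in control and 2.17, 1.90 and 1.98 at the high dose. Emr1, which encodes F4/80, was 199, 208 and 200 FPKM in control and 117, 133 and 132 at the high dose. Aif1 was 7.09, 6.30 and 6.22 in control and 3.92, 4.92 and 2.76 at the high dose. Markers of T, B and NK cells, neurons, astrocytes and endothelial cells had sums under 1 FPKM in every library. Those of oligodendrocytes summed to 0.817 to 1.44 FPKM. For plasmacytoid dendritic cells, the main interferon producers, the sum was about 87.3 to 110 FPKM, made up of Bst2, which is itself a member, and Tcf4, and their marker Siglech was at 0. The part of the microglial markers in the differences above was not tested.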

How the data were processed

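Poly(A) RNA of BV2 cells was sequenced in 9 libraries. A stranded kit is named for the RNA step and another kit for the adapters, and whether strand was kept is not stated. The authors removed low-quality reads, aligned with TopHat, and deposited FPKM values from Cufflinks 2.1.1, run with multi-read and fragment bias correction on release 77 of the Ensembl annotation. Correction for multi-reads divides reads among paralogs by estimate. Samples were grouped by the treatment in their labels. All 9 columns of values were used.

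Members were matched by gene name. FPKM was transformed to log2(FPKM + 1), and the 11161 genes that averaged 1 FPKM or more were fitted with limma 3.58.1 in R 4.3.3 (3 groups in 1 fit, eBayes with trend, Benjamini-Hochberg adjustment over all genes). Tables were made with Python 3.11.15 and pandas 2.3.3, figures with matplotlib 3.10.9. The procedure was tested on simulated data. Depth was estimated from steps between low FPKM values of genes with a single transcript, using transcript lengths of GENCODE M21, where 74.1% to 77.8% of low values came within 0.25 of a whole fragment, so it is approximate. The members, the upstream and further gene lists, and the cell markers were chosen with earlier results of these data known. Genes named are Oasl1 and Rtp4, members whose high dose libraries lay outside both other groups, the 5 most abundant members, and in the other lists the genes called or the largest differences without overlap. Other members and genes that illustrate a role were named after their values were seen. Alternatives were pseudocounts of 0.1 and 0.01, no minimum or a minimum of 5 FPKM, rescaling by median of ratios or by quantiles, eBayes with no trend, fits on the 6 libraries of a comparison, a replicate block and leaving out each library. A correction by loess for GC and length of the transcripts (span 0.5) and the count against both groups were chosen after seeing the data. Gbp10, Ifit1bl1, Ifit3b and Irf8 were not analysed here. Values of 1 gene of the upstream list are not reported here.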

Additional observations from a re-analysis of the deposited data

How the results depend on the processing

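The median of the members against control was -0.00903 with a filter at 5 FPKM (0.09 as reported). Small differences changed sign with single libraries left out: the median of the sensors against control was 0.04, but -0.07 without control replicate 1 and -0.04 without high dose replicate 2, and without high dose replicate 1 Ifitm3 turned below 0 and Samhd1 and Eif2ak2 above 0 against control, and Isg15 turned below 0 and Ddx58 above 0 against the low dose. Members past an adjusted p were not counted in the high dose comparisons, since the members were chosen with these known. Against control, the 3 upstream calls were 1 with only the 6 libraries and 0 to 3 with a library left out. The 2 calls among further interferon-stimulated genes were 1 with no filter, 0 with only the 6 libraries and 0 to 2 with a library left out. The 7 members above all controls were 2 of 15 with a filter at 5 FPKM, beside 13.7% of all genes, and 7 to 11 with a library left out, the 11 being without control replicate 2, beside 15.8% of all genes, and the median ran from 0.0326 to 0.105. For high dose against low dose, the upstream call (1) was 0 with the GC and length correction, 0 with only the 6 libraries and 0 to 1 with a library left out. The 9 members above all low dose libraries were 3 of 15 with a filter at 5 FPKM, beside 10.3% of all genes, and the median of 0.08 was 0.0109 with that filter and 0.0351 with no filter. For low dose against control, the 2 members above all controls were 1 of 15 with a filter at 5 FPKM, beside 6.41% of all genes, 1 with median-of-ratios rescaling, beside 5.74% of all genes, and 2 to 4 with a library left out, the 4 being without control replicate 3, beside 12.8% of all genes. The 6 members above both groups were 2 of 15 with a filter at 5 FPKM, beside 7.01% of all genes. The 3 members below both groups were 0 with the GC and length correction and 1 with rescaling by quantiles. A filter acts through fewer or more genes tested, and for the other settings the cause was not tested. Depth limits the members of low level. The log2 difference of Rtp4 from control was 0.96 at a pseudocount of 0.1 and 1.00 at 0.01.

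Samples of different groups share replicate numbers in the labels. Deviations from the group means of the 9 same-numbered pairs correlated at -0.088 to 0.152, so the numbers are not shown to pair the samples. With the replicate number as a block, 1 upstream gene and 0 further interferon-stimulated genes were called against control, and 0 upstream genes against the low dose.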
